A study of Danio rerio with 9 samples.

Results

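The genes described here are 49 named zebrafish genes whose transcripts were higher in every amputated tail sample than in every intact one. They were selected on the measured values themselves. A transcript was taken if it carried a RefSeq mRNA identifier with a gene symbol, if the lowest of the 5 cut values lay above the highest of the 4 uncut values, and if the mean of the cut values exceeded the mean of the uncut values by at least 0.5 on the log2 scale. Of 37176 transcripts on the array, 2663 could be named in this way, and 62 of these met both conditions on the values. The 13 others among the 62 were left out by name: solute carriers, taken to include the organic anion transporter gene *slco2b1* (the only 1 affected, with a difference of 0.57), and a set of genes fixed by name in the rule, such as *mfap4.1*, *pth1a* and *fstb*. All differences between cut and uncut tails given for the 49 genes are therefore descriptions of the selected values and carry no test.

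The study used larvae of the wild-type strain AB. In cut samples the tail fin was removed just behind the notochord at 2 days post fertilization (dpf) and the posterior tissue was collected at 3 dpf, which is 1 day post amputation (dpa). In uncut samples the posterior tissue of siblings was collected at 3 dpf. About 150 tails were used per condition, and the RNA was amplified before it was labeled and hybridized in 1 color to a NimbleGen array. It is not stated in the labels or methods that the replicates came from different pools, so p-values and SDs cover only the spread between these arrays, which may be technical. The arrays were made from whole posterior tissue, in which more cells of a type cannot be told apart from more RNA per cell.

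After amputation of a larval fin fold, epidermal cells close the wound and form a wound epidermis, and mesenchymal cells below it gather into a proliferating blastema that rebuilds the lost tissue. Neutrophils and macrophages enter the stump early and take part in clearing debris and in signaling to the regenerating cells. Matrix remodeling, secretion of new extracellular protein and growth factor signaling accompany these steps.

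Of the 5 cut arrays, replicate 3 stood apart from the others, and replicate 5 deviated to a smaller extent in genes of the lens, pancreas and photoreceptors. Among 8 measured lens markers that are not among the 49 genes, the median log2 value was 8.15 to 8.90 in uncut arrays, 8.44 to 8.72 in cut replicates 1, 2 and 4, 12.08 in cut replicate 3 and 10.01 in cut replicate 5. The exocrine pancreas marker *prss59.1* and the photoreceptor arrestins *saga* and *sagb*, genes of organs that a tail does not contain, were likewise highest in cut replicate 3. For the lens and neuronal genes among the 49, differences are given with and without cut replicate 3. Those of *crybb1* and *crygn2* are also given without cut replicates 3 and 5. Among epidermal and muscle markers, the keratin gene *krt97* measured between 11.37 and 12.48 over the 9 arrays. The muscle genes *tnnc1b* and *acta1b*, a troponin and an actin gene, measured between 14.00 and 14.53 and between 10.92 and 13.16. In all 3 cases the groups overlapped, as they did in the other measured epidermal and muscle markers outside the 49 genes. *acta1b* was highest in cut replicate 3.

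Across the 49 genes, the mean of the cut arrays exceeded the mean of the uncut arrays by 0.50 to 2.01 on the log2 scale, with a median of 0.64, a fold of 1.56. The median difference was 0.04 over all transcripts and 0.08 over the named ones. Most of the selected differences were small: 44 of 49 were below 1, and 17 were below 0.6. The gap between the lowest cut value and the highest uncut value had a median of 0.12, and it was under 0.1 in 19 genes and at least 0.3 in 10. In the direction of lower values, the same conditions were met by 12 named transcripts, counted like the 62 before any were left out by name. The median of every cut array (8.593 to 8.628) lay above that of every uncut array (8.537 to 8.586). Such an offset favors the higher direction, so the 62 and the 12 are not compared. With each array centered on its median, 33 of the 49 genes still met the conditions. On the deposited values, both conditions for higher values were met by 2.33% of named transcripts and by 1.40% of all transcripts. In a linear model over all transcripts (limma, fold of at least 1.5 and Benjamini-Hochberg adjusted p of at most 0.1), 7 of the 49 were called higher and 0 lower, beside 0.468% of all transcripts called higher and 0.229% called lower. The same contrast selected the genes, so nothing is read from this count. It was 2 without uncut replicate 2 and without uncut replicate 4, 3 without cut replicate 1 and without cut replicate 2, 4 without cut replicate 4, and 17 without uncut replicate 3. The number of all transcripts called higher, 174 over all arrays, moved with it: 47, 47, 84, 65, 96 and 326 in the same order. With the arrays centered on their medians, 142 of all transcripts were called higher and 109 lower, beside 174 and 85 on the deposited values.

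**Figure D1:**
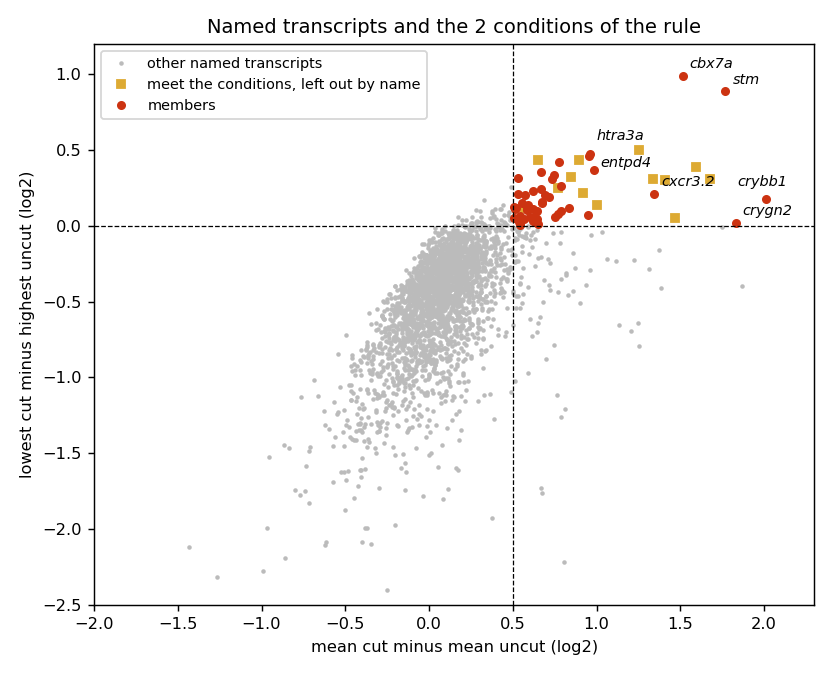
Each point is a named transcript, with the mean cut minus the mean uncut log2 value on the horizontal axis and the lowest cut minus the highest uncut log2 value on the vertical axis. Red points are the 49 genes described, yellow squares the 13 transcripts left out by name, and 4 named transcripts lie outside the plotted range. Most red points crowd near the corner set by the thresholds, and *cbx7a* and *stm* lie farthest from it in the vertical direction, with gaps of 0.99 and 0.89.

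The widest separation was seen for *stm* and *cbx7a*. *stm* encodes Starmaker, a matrix protein that zebrafish use to build the otoliths of the inner ear. It measured 12.16, 11.47, 12.01 and 11.40 in uncut replicates 1 to 4 and 13.69, 14.01, 13.49, 13.41 and 13.05 in cut replicates 1 to 5. Every cut array was well above every uncut array, with a gap of 0.89 between the groups, and the spread was similar in both (SD 0.36, n = 5, and 0.38, n = 4). The difference was 1.77 (SE 0.22 from limma), a fold of 3.41. *cbx7a* encodes a chromobox protein of the Polycomb complexes, which keep genes silent through chromatin. It measured 11.30, 10.23, 11.18 and 11.01 in the uncut arrays and 12.51, 12.43, 12.41, 12.57 and 12.30 in the cut arrays. The cut arrays lay close together (SD 0.10, n = 5), whereas uncut replicate 2 fell below the other uncut arrays (SD 0.49, n = 4). The difference was 1.51 (SE 0.20), and the gap of 0.99 was the widest among the 49 genes.

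Besides *stm*, 5 genes were placed in a role group of secreted and cell surface proteins. Each gene was given a single role, so other genes with such products, among them *cxcr3.2*, *adora2aa* and *nptnb*, are described under other roles. *htra3a*, which encodes a serine protease of the HtrA family, measured 7.40, 7.51, 7.58 and 7.64 in uncut tails and 9.15, 8.51, 8.12, 8.29 and 8.39 in cut tails. Uncut arrays were tightly grouped (SD 0.10), and cut replicate 1 was the highest of the cut arrays. The difference was 0.96 (SE 0.19). *fgfbp2b*, which encodes a secreted protein that binds fibroblast growth factors, measured 10.93, 9.71, 11.11 and 10.18 in uncut tails and 11.18, 11.38, 11.23, 11.61 and 11.76 in cut tails. Uncut replicates 1 and 3 nearly reached the lowest cut array, and the gap was 0.07 for a difference of 0.95 (SE 0.27). The other 3 had smaller differences. *tspan34b*, a tetraspanin gene, was higher by 0.65, *cdcp1a*, which encodes a transmembrane protein phosphorylated by Src kinases, by 0.53, and *fibinb*, a homolog of the fin bud initiation factor gene, by 0.51. In 5 of these 6 genes the highest cut array was replicate 1 or 2, as it was in 26 of all 49.

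Proteins of the secretory pathway formed a group of 5. *hspa13*, a member of the Hsp70 family, measured 7.90, 7.40, 7.49 and 8.16 in uncut tails and 9.16, 8.35, 8.26, 8.43 and 8.43 in cut tails. Cut replicate 1 exceeded the other cut arrays, and uncut replicate 4 came within 0.10 of the lowest cut array. The difference was 0.79 (SE 0.22). *mogs*, which encodes the glucosidase that removes the first glucose from new N-glycans in the endoplasmic reticulum, measured 9.96, 9.41, 10.01 and 9.58 in uncut tails and 10.62, 10.54, 10.27, 10.33 and 10.84 in cut tails. The groups were separated by 0.27, and the difference was 0.78 (SE 0.17). Smaller differences were found for *surf4l*, related to an endoplasmic reticulum cargo receptor (0.56), *plod2*, which encodes a lysyl hydroxylase that modifies collagen (0.54), and *txndc12*, which encodes a thioredoxin-like protein of the endoplasmic reticulum (0.53).

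*plod2* was the only gene of the 49 with a further named transcript on the array, and the pair disagreed. The selected transcript measured 9.68, 9.24, 9.76 and 9.16 in uncut tails and 10.20, 9.77, 9.82, 9.93 and 10.30 in cut tails. The other measured 8.77, 8.63, 7.98 and 8.77 in uncut tails and 8.31, 7.97, 7.91, 8.30 and 8.25 in cut tails, with overlapping groups and a difference of -0.39. Averaged over its transcripts, *plod2* did not meet the conditions.

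Of 3 genes of nucleotide and adenosine metabolism or signaling, *entpd4*, which encodes a nucleoside diphosphatase of the Golgi and lysosomes, had the largest difference. It measured 9.13, 8.58, 9.12 and 8.59 in uncut tails and 9.99, 9.98, 9.71, 9.59 and 9.77 in cut tails. Uncut replicates 1 and 3 were higher than uncut replicates 2 and 4, yet all 4 remained 0.46 or more below the cut arrays. The difference was 0.95 (SE 0.16). *dck*, which encodes the deoxycytidine kinase of nucleoside salvage, was higher by 0.60, and *adora2aa*, which encodes an adenosine receptor, by 0.57.

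Among 6 genes of metabolism and transport, *ass1*, which encodes argininosuccinate synthase, an enzyme of arginine synthesis, measured 7.51, 7.79, 8.002 and 7.79 in uncut tails and 8.69, 9.35, 8.66, 8.37 and 8.70 in cut tails. Cut replicate 2 was the highest array, and the groups were 0.37 apart. The difference was 0.98 (SE 0.19), close to a doubling with a fold of 1.98. The efflux transporter gene *abcg2a* was higher by 0.75, *tha1*, which encodes a threonine aldolase, by 0.62, the cytochrome P450 gene *cyp1b1* by 0.55, the galactokinase gene *galk1* by 0.53, and *stoml2*, which encodes a stomatin-like protein of mitochondria, by 0.51.

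The 6 genes with known roles in immune cells or cell death had a median difference of 0.69. *cxcr3.2*, which encodes a chemokine receptor of zebrafish macrophages, measured 6.43, 6.66, 7.30 and 7.28 in uncut tails and 8.42, 9.13, 8.39, 7.84 and 7.51 in cut tails. Its values were spread in both groups, with cut replicate 5 only 0.21 above the highest uncut array and cut replicate 2 the highest of all. The difference was 1.34 (SE 0.32). *tnfsf12*, which encodes the tumor necrosis factor family ligand TWEAK, measured 8.03, 8.44, 8.54 and 8.54 in uncut tails and 9.21, 9.64, 9.02, 8.96 and 9.004 in cut tails. Here too cut replicate 2 was highest and uncut replicate 1 lowest, and the groups were 0.42 apart for a difference of 0.78 (SE 0.17). *ocstamp*, required in mammals for the fusion of osteoclasts, was higher by 0.75, *calhm6*, of the calcium homeostasis modulator family, by 0.64, *blnk*, which encodes an adaptor of B cell receptor signaling, by 0.54, and *xaf1*, which encodes a factor that binds the apoptosis inhibitor XIAP in mammals, by 0.50.

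Relative to the uncut mean, the median of these 6 genes was 0.85 and 1.21 in cut replicates 1 and 2 and between 0.54 and 0.57 in cut replicates 3, 4 and 5, and 5 of the 6 were highest in cut replicate 1 or 2. So were 26 of all 49 genes, and 5 of 6 in the metabolism and transport group as well as in the secreted and cell surface group. Among all named transcripts, 25.6% were highest in cut replicate 1 and 17.1% in cut replicate 2 among the cut arrays. This order is thus not particular to the immune and cell death genes. Some markers of macrophages and neutrophils had a similar order of arrays. Of 27 listed markers, 5 had a named transcript, and 4 of these are not among the 49 genes (*csf1ra*, *spi1b*, *mfap4.1* and *il1b*). Their median was 7.27 to 7.71 in uncut arrays and 8.68, 8.61, 8.13, 8.14 and 7.89 in cut replicates 1 to 5. The listed marker *irf8*, which the paper lists as upregulated on these arrays, had no named transcript here. *spi1b*, which encodes a transcription factor of myeloid cells, and *mfap4.1*, a macrophage marker in zebrafish, did not overlap between the groups and were highest in cut replicates 1 and 2. Both meet the conditions on the values themselves and were left out by name. *csf1ra* and *il1b* overlapped between the groups and did not follow this order, with *csf1ra* at 6.41 in cut replicate 1 and *il1b* at 7.40 in cut replicate 2, within the range of the uncut arrays. The part of these cells in the differences of the 6 genes was not tested.

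A set of 7 genes acts in the nucleus, in DNA repair, in cell division or on RNA. After *cbx7a*, the largest difference was that of *med24*, a subunit gene of the Mediator complex of transcription, at 0.77. *rad52* and *zswim7*, whose products take part in homologous recombination (known from yeast or mammals), were higher by 0.67 and 0.54. *rad52* measured 8.76 to 9.15 in uncut tails and 9.50 to 9.79 in cut tails, a separation of 0.35. *haus5*, which encodes a subunit of the augmin complex of the mitotic spindle, was higher by 0.63 with uncut replicate 3 only 0.03 below the lowest cut array. *cmss1* was higher by 0.63 and *fam98b*, which encodes a subunit of the tRNA ligase complex, by 0.54.

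Signaling inside the cell was represented by *mapkapk3* and *rhoub*. *mapkapk3*, which encodes a kinase activated by the stress kinase p38, measured 10.62, 10.32, 11.06 and 10.10 in uncut tails and 11.43, 11.32, 11.39, 11.18 and 11.50 in cut tails. Cut arrays lay within a narrow band (SD 0.12), uncut arrays did not (SD 0.41), and uncut replicate 3 came within 0.12 of the lowest cut array. The difference was 0.84 (SE 0.18). *rhoub* was higher by 0.69. The slow muscle troponin gene *tnni1b* was higher by 0.67, from 8.46 to 8.92 in uncut tails to 9.17 to 9.62 in cut tails. Of 36 listed muscle markers 5 had a named transcript, and the 4 besides *tnni1b* all overlapped between the groups. *zgc:56622* was higher by 0.67.

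**Figure D2:**
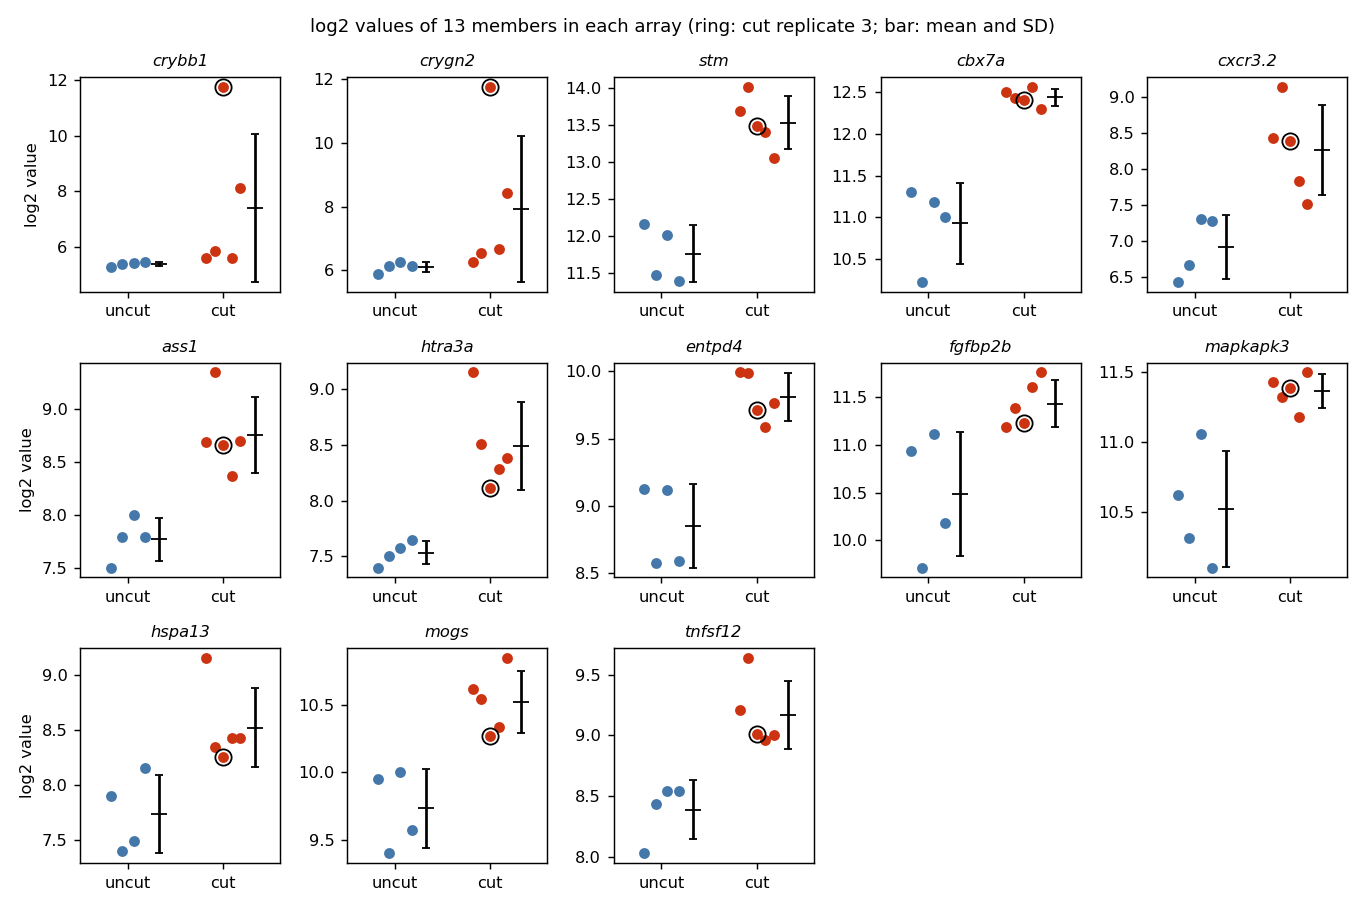
Each panel shows the log2 values of 1 gene in the 4 uncut arrays (blue) and the 5 cut arrays (red), with the mean and SD of each group as a bar and cut replicate 3 ringed. Vertical axes differ between panels. The groups do not overlap in any panel, as the selection requires, and cut replicate 3 lies far above the other cut arrays for *crybb1* and *crygn2* but within or below them in the other 11 panels.

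The largest mean differences of all belonged to lens crystallin genes, and they came from cut replicates 3 and 5. *crybb1*, a beta-crystallin gene, measured 5.29, 5.40, 5.42 and 5.46 in uncut tails and 5.64, 5.87, 11.74, 5.64 and 8.14 in cut tails. *crygn2*, a gamma-crystallin gene, measured 5.88, 6.14, 6.24 and 6.14 in uncut tails and 6.27, 6.55, 11.76, 6.66 and 8.41 in cut tails. In both genes cut replicates 1, 2 and 4 were much nearer to the uncut arrays than to cut replicate 3. The difference of *crybb1* was 2.01 over all arrays (SE 1.12), 0.93 without cut replicate 3 and 0.32 without cut replicates 3 and 5. The difference of *crygn2* was 1.83 (SE 0.97), 0.87 and 0.39 in the same order. A further crystallin gene, *crygmx*, just missed the conditions, with a lowest cut minus highest uncut value of -0.0045 and a mean difference of 1.75. Its value was 12.05 in cut replicate 3 and 5.82 to 6.72 in the other cut arrays, so this mean difference rests largely on cut replicate 3.

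Another 10 genes have known roles in neurons. *khdrbs2*, which encodes an RNA-binding splicing regulator active in mouse neurons, measured 6.60 to 6.66 in uncut tails and 6.97, 7.17, 8.29, 7.43 and 7.01 in cut tails. *nptnb*, which encodes the synaptic adhesion protein neuroplastin, measured 7.98, 7.68, 7.72 and 7.82 in uncut tails and 8.02, 8.16, 9.78, 8.13 and 8.12 in cut tails. Cut replicate 3 was far above the other cut arrays in both. For *nptnb* the other 4 cut arrays lay only slightly above uncut replicate 1. *camk1db*, which encodes a calcium- and calmodulin-dependent kinase, measured 6.55 to 6.85 in uncut tails and 6.95, 7.04, 8.40, 7.05 and 7.05 in cut tails. *dlg2*, which encodes a scaffold of the postsynaptic density, measured 7.63 to 7.76 in uncut tails and 7.87, 8.13, 9.18, 8.19 and 8.12 in cut tails. *crhbp*, which encodes the binding protein of corticotropin-releasing hormone, measured 8.04 to 8.55 in uncut tails and 8.83, 8.85, 9.67, 8.98 and 8.70 in cut tails. These genes are shown because they were highest in cut replicate 3 with the largest steps, so that order follows from the choice. Of the other neuronal genes, *draxina* was highest in cut replicate 5 and *stxbp6* in cut replicate 1.

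Without cut replicate 3, the differences fell from 0.64 to 0.31 for *nptnb*, from 0.62 to 0.34 for *camk1db*, from 0.59 to 0.37 for *dlg2*, from 0.58 to 0.42 for *napgb*, which encodes a SNAP protein of vesicle fusion, and from 0.59 to 0.45 for *scn3b*, which encodes a beta subunit of sodium channels. These 5 genes then no longer met the threshold of 0.5. *khdrbs2* and *crhbp* fell from 0.74 and 0.67 to 0.51 each, just above the threshold. *rgs7bpa*, which encodes a partner of R7 regulators of G protein signaling, fell from 0.62 to 0.53. The remaining pair of neuronal genes changed less. *draxina*, an axon guidance gene, was higher by 0.72 with cut replicate 3 and by 0.68 without it. *stxbp6*, which encodes the SNARE-binding protein amisyn, was higher by 0.52 and 0.55 in the same order. Over the 10 neuronal genes the median difference was 0.62 with and 0.48 without cut replicate 3.

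The roles were assigned after the values had been seen, and the following counts are descriptions. Of the 12 neuronal and lens genes, 10 were highest in cut replicate 3 among the cut arrays and 0 were lowest in it. Of the 37 other genes, 0 were highest in cut replicate 3 and 11 were lowest in it. Among all named transcripts, 13.4% were highest and 27.8% lowest in cut replicate 3 among the cut arrays, so the share lowest in it among the 37 is near the background. All 37 kept a difference above 0.5 without cut replicate 3, the smallest being 0.52. With none of them highest in that array, there was little room for a fall. If the medians of the groups are compared in place of their means, the difference was under 0.5 in 16 of 49 genes, 8 of them neuronal or lens genes. The word consistent describes only the order of the arrays in the 49 genes. In the crystallins and the 8 neuronal genes highest in cut replicate 3, leaving that array out must lower the difference. Only the size of the fall is read, and 5 neuronal genes fell below 0.5. The crystallins *crybb1* and *crygn2* fell to 0.93 and 0.87, and to 0.32 and 0.39 without cut replicate 5 as well.

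**Figure D3:**
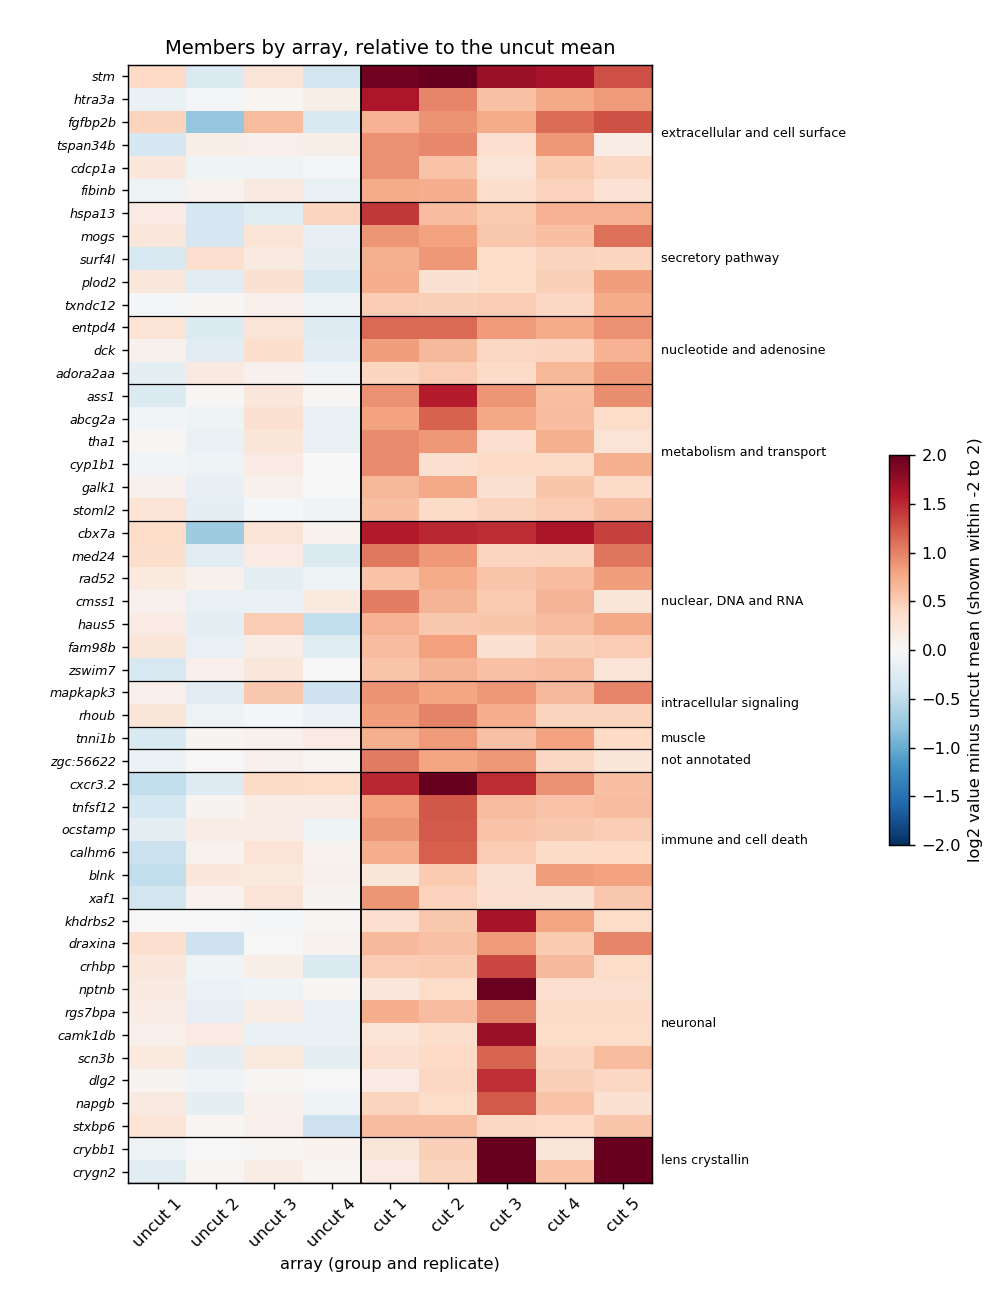
The log2 value of each of the 49 genes in each array is shown relative to the mean of the 4 uncut arrays, with colors limited to the range from -2 to 2 and genes grouped by role. Lens genes, in the lowest block, reach the limit of the colors in cut replicates 3 and 5 (medians 6.004 and 2.53). The neuronal genes above them have their highest median in cut replicate 3 (1.28), and immune and cell death genes in cut replicate 2 (1.21).

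**Figure D4:**
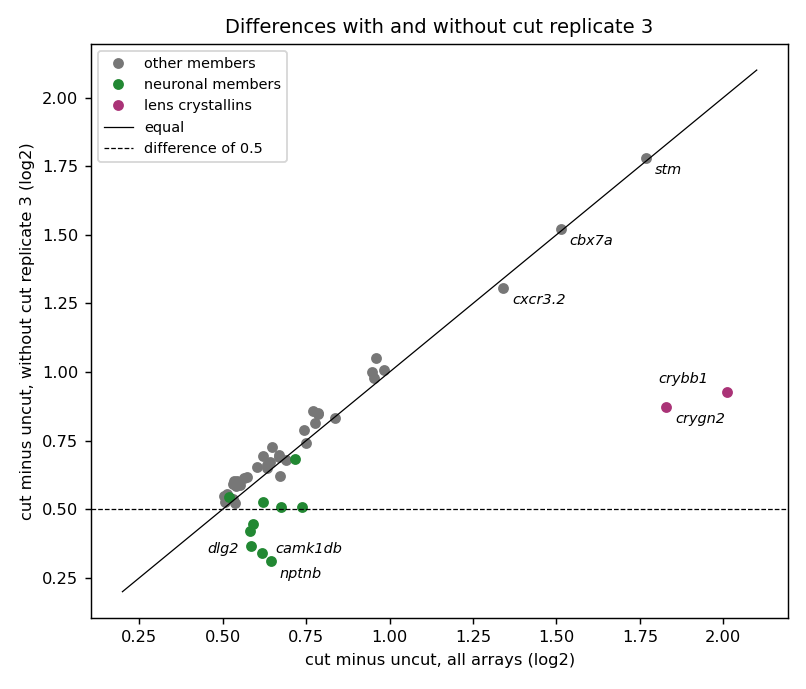
The cut minus uncut difference over all arrays (horizontal axis, log2) is set against the difference without cut replicate 3 (vertical axis, log2) for each of the 49 genes. The lens crystallins and most neuronal genes fall below the line of equal values, 5 neuronal genes fall below 0.5, and *stm*, *cbx7a* and *cxcr3.2* lie close to the line at 1.78, 1.52 and 1.31.

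Markers outside the 49 genes were compared over the same arrays. Of 8 lens markers, 7 were highest in cut replicate 3. *prss59.1* measured 8.62 to 9.28 in uncut tails and 8.67, 8.94, 11.62, 9.45 and 9.77 in cut tails. Both photoreceptor arrestins were highest in the same array, with medians of 5.39 to 5.55 in uncut tails and 5.31, 5.52, 7.46, 5.57 and 5.86 in cut tails. Of 24 listed neural markers, 3 had a named transcript, and *tubb5*, which the paper lists as upregulated on these arrays, was not among them. *stmn2b*, a gene of growing axons, measured 8.27 to 8.51 in uncut tails and 8.34, 8.41, 10.36, 8.41 and 8.18 in cut tails, and *slc32a1*, which encodes the vesicular transporter of inhibitory neurons, 5.37 to 5.70 in uncut tails and 5.64, 5.87, 7.62, 5.76 and 5.91 in cut tails. *slc17a6b*, which encodes the vesicular transporter of excitatory neurons, showed no such peak, with 8.18 in cut replicate 3 and 7.24 to 8.34 in the other arrays. The lens gene *crygm2a* had no such peak either, with 6.61 in cut replicate 3. Cut replicate 3 was thus high in most, but not all, markers of lens, pancreas, photoreceptors and neurons that had a named transcript outside the 49 genes. Of 20 listed liver markers none had a named transcript. The part of these tissues in the differences of the neuronal and crystallin genes was not tested.

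**Figure D5:**
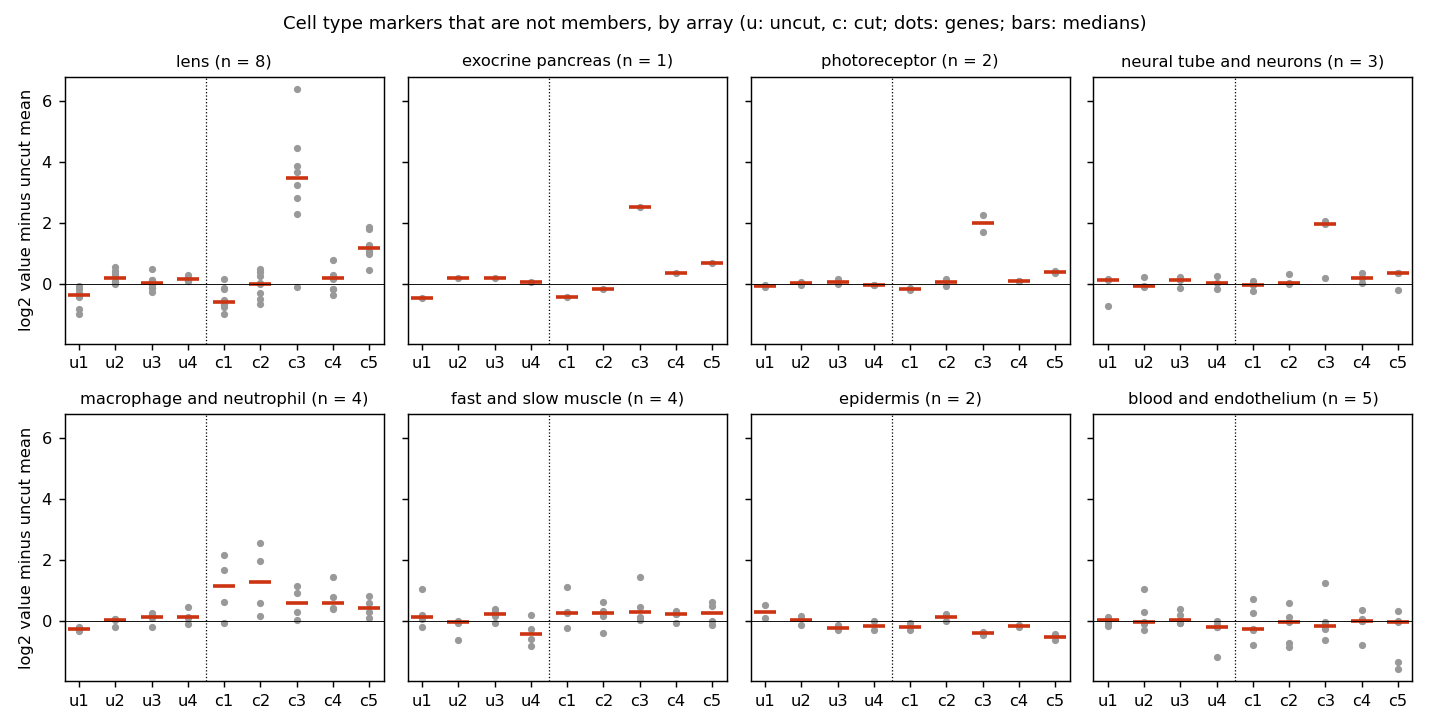
Log2 values of cell type markers that are not among the 49 genes are shown relative to the mean of the 4 uncut arrays (u1 to u4, cut arrays c1 to c5), with dots for genes and bars for their median. Pancreas and photoreceptor markers, 7 of 8 lens markers and 2 of 3 neural markers peak in cut replicate 3. The median of the macrophage and neutrophil markers is highest in cut replicates 1 and 2. The median log2 value of the 2 epidermal markers is 12.66, 12.97, 12.44, 12.68 and 12.33 in cut replicates 1 to 5, beside 12.62 to 13.14 in uncut arrays. No epidermal, muscle or blood marker shown has every cut value above every uncut value.

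Among the 49 genes the highest cut array was replicate 1 in 12, replicate 2 in 14, replicate 3 in 10, replicate 4 in 2 and replicate 5 in 11. The shares among all named transcripts were 25.6%, 17.1%, 13.4%, 23.2% and 20.6% in the same order, so replicate 4 was seldom highest in the 49. The lowest cut array, which sets the border, was most often replicate 5 (15 genes). The highest uncut array was replicate 3 in 21 genes, replicate 1 in 16, and replicates 2 and 4 in 6 each. Among all named transcripts, replicates 3 and 1 were the highest uncut array in 32.2% and 39.1% as well, and replicate 5 was the lowest cut array in 21.0%. Uncut replicate 3 was the lowest uncut array in 2 of the 49, beside 18.7% of named transcripts. The 49 genes were selected on these same values, so nothing further is read from these counts. With the same genes left out by name, 83 named transcripts in place of 49 met the conditions without uncut replicate 1, and 76 did without uncut replicate 3.

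Genes near the thresholds differed little on either side. Just inside the minimum difference were *xaf1* (0.50), *stoml2* (0.51) and *fibinb* (0.51), and just outside it, with non-overlapping groups, were *tspan5b*, *dhrs7b* and *prep* (0.49, 0.48 and 0.48). *xaf1* measured 6.58, 7.02, 7.20 and 6.997 in uncut tails and 7.83, 7.42, 7.28, 7.25 and 7.50 in cut tails. *tspan5b* measured 9.39, 9.37, 9.49 and 9.34 in uncut tails and 10.03, 9.80, 10.004, 9.86 and 9.75 in cut tails. The groups of *tspan5b*, which was not taken, were thus 0.26 apart and those of *xaf1*, which was, only 0.05. *stoml2* measured 11.74, 11.30, 11.45 and 11.41 against 12.08, 11.87, 11.92, 11.98 and 12.08, and *fibinb* 9.75, 9.93, 10.03 and 9.70 against 10.60, 10.58, 10.20, 10.31 and 10.15. *dhrs7b* measured 6.95, 6.89, 7.12 and 6.78 against 7.57, 7.81, 7.16, 7.39 and 7.16, and *prep* 9.13, 8.86, 8.59 and 8.76 against 9.43, 9.19, 9.35, 9.30 and 9.32. In all 4 genes an uncut array came near the lowest cut array.

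By the gap between groups, *plod2* (0.0042), *tspan34b* (0.015) and *blnk* (0.018) were just inside. *tspan34b* measured 9.11, 9.59, 9.55 and 9.56 in uncut tails and 10.37, 10.42, 9.79, 10.31 and 9.60 in cut tails. *blnk* measured 5.94, 6.65, 6.63 and 6.53 in uncut tails and 6.67, 6.97, 6.74, 7.27 and 7.24 in cut tails. In all 3 genes the lowest cut array nearly met the highest uncut array. Just outside were *hspa4a*, an Hsp70-related gene whose extreme values were equal, *crygmx* and *dachc*. *hspa4a* measured 10.99, 10.31, 10.71 and 10.62 against 11.05, 11.02, 10.99, 11.51 and 11.68, and *dachc* 7.19, 7.01, 6.99 and 7.29 against 8.15, 7.75, 7.63, 7.76 and 7.29. *crygmx* measured 5.39, 5.66, 5.80 and 5.83 against 5.82, 6.08, 12.05, 6.44 and 6.72. Mean differences of *hspa4a* and *dachc* were 0.59 each, above that of many genes that were taken.

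Named relatives of the 49 genes were matched by the letters of their symbols before the first digit. Such a match does not always mark a gene family, and 14 were matched to *fam98b* by the letters fam alone. Of 93 relatives of 24 genes, limma called 0 higher and 1 lower, beside 15 higher and 6 lower of 2663 named transcripts. The 15 were all among the 49 genes (7) or left out by name (8), so nothing is read from the 0. The median difference of the relatives was 0.07, and 9 were higher and 6 lower at an unadjusted p under 0.05 (limma). These are 9.68% and 6.45% of the relatives, beside 7.89% and 3.30% of named transcripts and 6.46% and 5.71% of all transcripts at the same p. The relative called lower was *scn4ba*, a sodium channel beta subunit gene like *scn3b*, at -0.77 (SE 0.12). The 5 other chromobox genes had differences between -0.41 (*cbx8a*) and 0.32 (*cbx3a*), beside 1.51 for *cbx7a*. The 5 other Mediator subunit genes lay between -0.0039 and 0.08, beside 0.77 for *med24*. Among close relatives, *cxcr3.1* had a difference of -0.14 beside 1.34 for *cxcr3.2*, *tspan34a* 0.01 beside 0.65 for *tspan34b*, *adora2ab* 0.09 beside 0.57 for *adora2aa*, and *surf4* -0.02 beside 0.56 for *surf4l*. Other genes matched by letters had differences near or above those of the selected genes. *rgs5b* was at 0.82 (SE 0.26) beside 0.62 for *rgs7bpa*, and *camk2n2* at 0.82 (SE 0.37) beside 0.62 for *camk1db*. *hspa4a* was at 0.59 (SE 0.19) beside 0.79 for *hspa13*, and *haus6* at 0.52 (SE 0.19) beside 0.63 for *haus5*. The differences between relatives were not tested.

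Pathway lists held at most 1 of the 49 genes each. Of 623 genes on 19 lists, 78 had a named transcript. Listed genes without a named transcript were not counted, although some are on the array. Among others, the paper lists *alpi.1*, *mmp9*, *mmp13a* and *gadd45ga* as upregulated and *phex* as downregulated. The rankings below hold only for the 78. Among the 72 of the 78 that are not among the 49 genes, limma called 0 higher and 1 lower. All 15 named transcripts called higher were among the 49 genes or left out by name, so nothing is read from the 0. The median difference of the 72 was 0.15, and 10 were higher and 1 lower at an unadjusted p under 0.05 (limma). These are 13.9% and 1.39%, beside 7.89% and 3.30% of named transcripts, whose median difference was 0.08. The gene called lower was *dpt*, which encodes the matrix protein dermatopontin, at -0.69 (SE 0.11). Of 9 biomineral and otolith matrix genes with a named transcript, the selected gene *stm* was followed by *oc90*, which encodes an otoconial protein, at 0.34 (SE 0.19). Of 5 such genes of arginine, urea cycle and polyamine metabolism, the selected gene *ass1* was followed by the spermidine synthase gene *srm* at 0.36 (SE 0.13). Of 5 DNA repair genes with a named transcript, the 4 besides the selected gene *rad52* had differences between 0.23 (*xrcc5*) and 0.28 (*xrcc4*). All 4 were above 0, as were 64.9% of named transcripts. Of 3 matrix protease genes with a named transcript, the selected gene *htra3a* was followed by the metalloproteinase gene *mmp30* at 0.68 (SE 0.28). In the list of endoplasmic reticulum folding and secretion, 2 of 34 genes had a named transcript, *calr* (0.25) and *ddit3* (-0.07). The paper lists *pdia5*, *creld2* and *lman1* of the same list as upregulated on these arrays, but none of them had a named transcript here.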

How the data were processed

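Expression was measured on 9 NimbleGen arrays with 1 color, 5 of cut and 4 of uncut tails. After compilation in NimbleGen software, the authors corrected the background by RMA and normalized the arrays in ArrayStar, by a step named quartile normalization in the methods, and deposited a log2 value for each transcript. The ArrayStar version and the probe summary are not given in the sources used here. The values (3.17 to 15.99, array medians 8.54 to 8.63) were used as deposited. There is no sequencing depth. Precision is limited by the number of arrays.

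Transcripts were named through the RefSeq annotation of GRCz12tu, used for names only: 2663 of 3055 RefSeq mRNA identifiers matched, for 2650 genes. No sequence table was available for these genes here. Cut and uncut arrays were compared with limma 3.58.1 (R 4.3.3), fitted to the 37176 transcripts with a single term for condition, and the scripts were tested on simulated data. The genes, lists, markers and tests were chosen with earlier results of these data known, and the role groups were assigned after the values had been seen. Array by array values are given for the 12 genes with the largest difference, the 6 with the widest gap, the 3 on either side of each threshold and, chosen after seeing the values, the neuronal genes highest in cut replicate 3 with the largest steps. *rad52*, *tnni1b* and 4 neuronal genes are given in part as ranges. Alternatives were quantile normalization, median centering, an offset of 50, a filter on the lowest 25%, averaged transcripts, other variance models, array weights, other thresholds, the replicate number as a block and each array left out. Nothing states that replicate numbers pair the samples, and the correlations of deviations for numbers 1 to 4 were 0.58, 0.09, 0.25 and 0.32, so the arrays were treated as unpaired.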

Additional observations from a re-analysis of the deposited data

Results flagged for a closer look

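In each of the 49 genes the highest and lowest array of each group was compared with the rest of its group (Dixon's test for a single outlying value). Of 98 groups, 9 had an array standing apart. In independent groups with no selection chance would give about 4.9, but the genes were selected on the order of these arrays and share them, so the 2 counts cannot be compared. Cut replicate 3 was far above the other cut arrays in *crhbp* (9.67), *nptnb* (9.78), *camk1db* (8.40) and *dlg2* (9.18), all genes with neuronal roles. *hspa13* was high in cut replicate 1 (9.16) and *txndc12* in cut replicate 5 (12.98), whereas *zswim7* was low in cut replicate 5 (8.46). Uncut replicate 1 was low in *tspan34b* (9.11) and high in *cdcp1a* (9.66) relative to the other uncut arrays. The crystallins *crybb1* and *crygn2* were not among them, since cut replicate 5 lay between cut replicate 3 and the rest.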

How the results depend on the processing

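The median difference of the 49 genes was 0.56 with an offset of 50 in place of 0.64 and stayed between 0.59 and 0.70 under the other alternatives run on it. The difference of *zgc:56622* was 0.38 with the offset in place of 0.67, and those of *crybb1*, *crygn2* and *nptnb* were 0.32, 0.39 and 0.31 without cut replicates 3 and 5 in place of 2.01, 1.83 and 0.64. Which genes are selected depended more on the setting. Leaving out 1 array gave 47 to 83 named genes, a difference of at least 1 gave 5, quantile normalization 40 (37 of the 49), median centering 33 (all among the 49) and the offset 38. Leaving out the 25% of transcripts with the lowest mean values gave 46, and *crybb1*, *zgc:56622* and *blnk*, which lie among those, were lost. The offset lowered the difference of *blnk* from 0.54 to 0.36. With cut replicates 3 and 5 both left out, an alternative chosen after seeing the data, 79 were found, 40 of the 49 among them. The number called by limma among the 49, 7 over all arrays, was 2 to 17 with 1 array left out, 3 without cut replicates 3 and 5, 11 without the lowest 25%, 37 with array weights and 3 at an adjusted p of at most 0.05. Calls over all transcripts moved alike: 174 were called higher with the settings as reported, 47 to 326 with 1 array left out, 97 without cut replicates 3 and 5, 199 without the lowest 25%, 1371 with array weights (and 1257 lower) and 90 at the stricter adjusted p. With the replicate block over the 8 arrays whose numbers are shared, 16 were called (377 of all transcripts). With the same genes left out by name, 123 named genes had a difference of at least 0.5 and each cut array above the uncut array of its number, which is a looser condition. The cause of these shifts was not tested. With 9 arrays, gaps as small as those near the threshold are within the spread between arrays.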
